A study of Mus musculus with 13 samples.

Results

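The enzymes that remove superoxide and peroxides, the enzymes that make and use glutathione, and their NRF2 regulators were followed in mandibular condylar cartilage, the tissue on the jaw side of the temporomandibular joint. The set holds 35 genes, found by symbol among the 18748 genes of the deposited table. They were taken by name and not by a cut on measured values, but the list was drawn up with earlier results of these data known. All 35 passed the filter on low counts. Messenger RNA was sequenced from 6 libraries of aged mice (18 months old) and 7 libraries of young mice (2 months old). Strain, sex and genotype are not given in the labels, and no treatment is named. Whether each numbered library came from its own mouse is not stated, so p-values measure the spread between libraries, which may be partly technical.

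Superoxide dismutases turn superoxide into hydrogen peroxide, which catalase, the glutathione peroxidases (Gpx) and the peroxiredoxins (Prdx) then remove. Glutathione peroxidases draw on glutathione, which is made by glutamate-cysteine ligase (Gclc and Gclm) and Gss and recycled by Gsr, while most peroxiredoxins draw on thioredoxin, which is recycled by the thioredoxin reductases. The transcription factor NRF2 (gene Nfe2l2) switches on many of these genes when its partner KEAP1 stops marking it for destruction. In cartilage, which has few vessels, secreted enzymes such as SOD3 and GPX3 act in the matrix, whereas mature red cells are packed with catalase, PRDX2, GPX1 and SOD1.

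Library totals ranged over 16356839 to 17876681 expected counts in aged mice and 17531694 to 18203443 in young mice. All 14 chondrocyte markers were present, at summed levels of 13384 to 28808 CPM (TMM-normalised counts scaled to library size) in aged and 33356 to 49997 CPM in young libraries, and 11 of them fell while 1 rose. Of 8 markers of osteoblasts and osteocytes 5 fell and 1 rose (5622 to 9686 CPM in aged, 9399 to 12983 CPM in young). Blood, muscle, myeloid and adipocyte markers went the other way. Adipocyte markers rose in 4 of 5 tested, with 0 lower (159 to 324 CPM in aged, 107 to 170 CPM in young). All 14 erythroid markers rose, with summed levels of 639 to 2083 CPM in aged against 46.5 to 278 CPM in young libraries. Skeletal muscle markers rose in 14 of 18 cases (5402 to 20072 CPM in aged, 691 to 6566 CPM in young), neutrophil markers in 12 of 13 (1279 to 6029 CPM in aged, 608 to 1937 CPM in young), and macrophage markers in 6 of 11 tested, with 2 lower (861 to 1867 CPM in aged, 823 to 1080 CPM in young). No marker of these lists was at 0 in every library of an age. In bulk RNA, a change in the number of cells of a type and a change in RNA per cell cannot be told apart.

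Most members were higher in aged cartilage, while the peroxidases of the endoplasmic reticulum were lower. Of the 35 members 22 rose, 4 fell and 9 were not called (edgeR quasi-likelihood test, Benjamini-Hochberg adjusted p under 0.05). Over all 14067 genes tested, 24.7% rose and 21.6% fell, 46.2% in all. The members' median log2 fold change was 0.44, against 0.014 over all genes. Aged libraries all lay above the young ones for 10 members and all below for 3, where 8.28% and 10.9% of all genes did so (19.2% in all). With library sizes alone in place of TMM factors the median of all genes stood at 0.24, 58.9% of genes were called, 7034 of them higher and 1253 lower, and 25 members rose while 2 fell. The largest rise was that of Sod3 (3.53-fold) and the largest fall that of Gpx7 (to 0.439 of the young level).

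**Figure D1:**
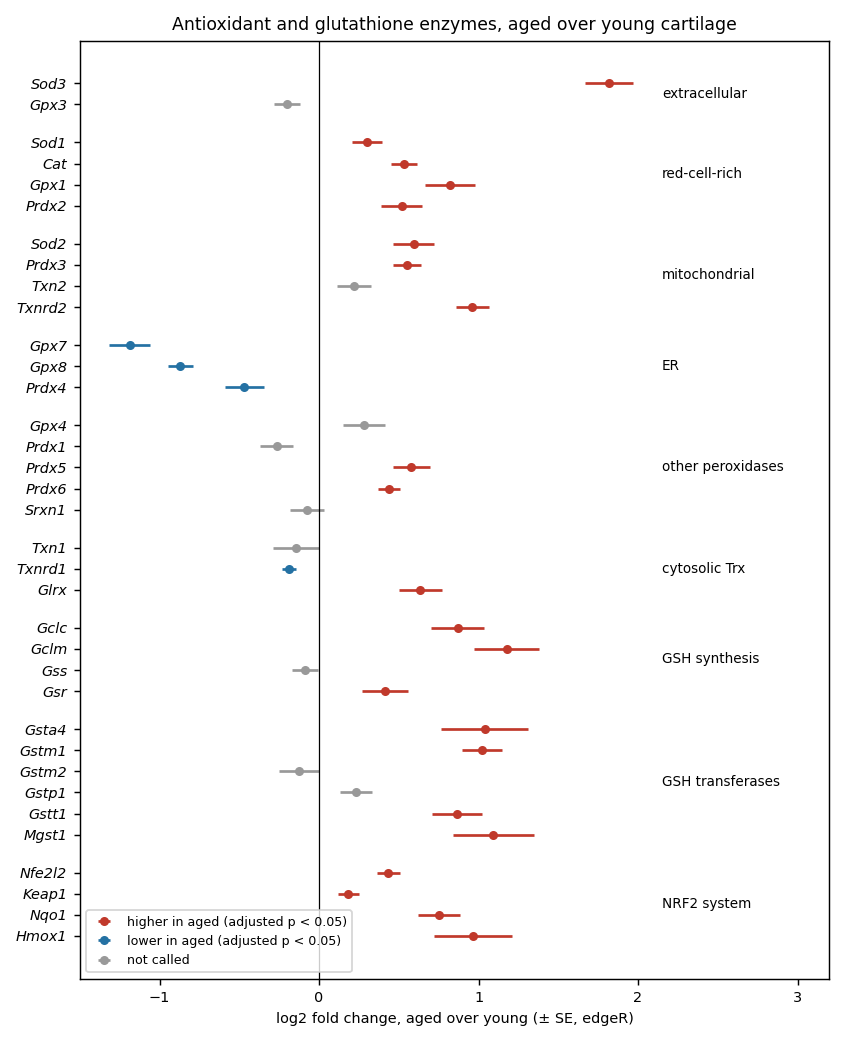
Log2 fold changes (aged over young, ± SE) of the 35 members, grouped by location or role, with red for members higher in aged libraries, blue for lower and grey for those not called. Sod3 stands at 1.82 at the right, and the 3 peroxidases of the endoplasmic reticulum (ER) lie left of 0, from −0.47 to −1.19.

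These counts changed when a marker level of other cells was added to the fit. With each library's erythroid marker level as a covariate, 2 members were called higher (Sod3 and Gstm1) and 2 lower (Gpx7 and Gpx8), while the share of all genes called was 4.87%. With the muscle marker level as a covariate 15 members rose and 2 fell, and 25.1% of all genes were called. Both marker levels follow age (r with age 0.92 for the erythroid and 0.77 for the muscle level), so a covariate removes part of the age contrast with it. With the erythroid level the SE of Prdx6 went from 0.07 to 0.18 while its log2 fold change went from 0.44 to 0.43. For Gclm the SE went from 0.20 to 0.43 and the log2 fold change from 1.18 to −0.11. The part of other cells in the lost calls was not tested. Sod3, Gstm1, Gpx7 and Gpx8 were called without a covariate and with either covariate.

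**Figure D2:**
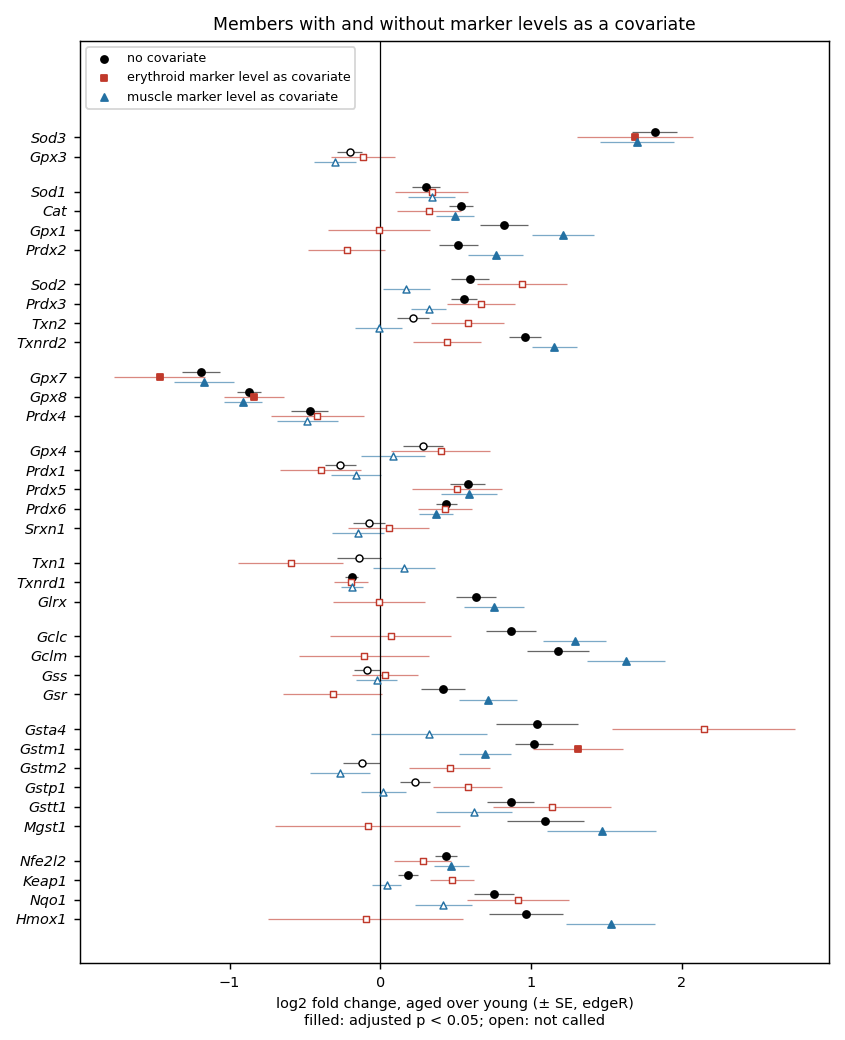
Log2 fold changes (aged over young, ± SE) of each member without a covariate (black circles), with the erythroid marker level (red squares) and with the muscle marker level (blue triangles) as a covariate; filled symbols passed an adjusted p of 0.05. Sod3, Gstm1, Gpx7 and Gpx8 are filled in all 3 fits, whereas Gclm, Hmox1, Gpx1 and Prdx2 move to −0.11, −0.10, −0.01 and −0.22 with the erythroid level.

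The extracellular enzymes moved apart. Sod3, the copper-zinc dismutase bound to the matrix, had 187, 282 and 372 CPM (lowest, median and highest of 6) in aged libraries, against 69.4, 74.6 and 98.4 CPM (of 7) in young libraries. Every aged library was above every young one. By edgeR this came to a log2 fold change of 1.82 ± 0.15 (SE, adjusted p = 8.25e-07). It stood at 1.69 with the erythroid level (adjusted p = 0.0328) and at 1.70 with the muscle level as a covariate (adjusted p = 0.000274). Among the dismutases, measured per length, Sod3 held 38.7 ± 5.66% of the summed TPM of Sod1, Sod2 and Sod3 in aged libraries (SD, n = 6) and 17.4 ± 2.85% in young ones (SD, n = 7).

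Gpx3, the secreted selenium-containing peroxidase, was the most abundant member on the TPM scale at both ages, at 4556 ± 343 TPM in aged libraries (SD, n = 6) and 5084 ± 168 TPM in young libraries (SD, n = 7). Its counts were 2125, 2592 and 2948 CPM (lowest, median, highest) in aged and 2842, 2959 and 3114 CPM in young libraries. The ages overlapped, and no aged library exceeded the young median. Its difference of −0.20 ± 0.08 in log2 (SE) missed the threshold (edgeR adjusted p = 0.0552) and stood at 0.03 with library sizes alone. Leaving out aged replicate 2 or aged replicate 5 brought it past the threshold (−0.24, adjusted p = 0.0304, and −0.25, adjusted p = 0.0252), as did DESeq2 (adjusted p = 0.00904). Of the summed TPM of the 5 glutathione peroxidases, Gpx3 held 73.2 ± 3.79% in aged and 79.0 ± 1.15% in young libraries.

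**Figure D3:**
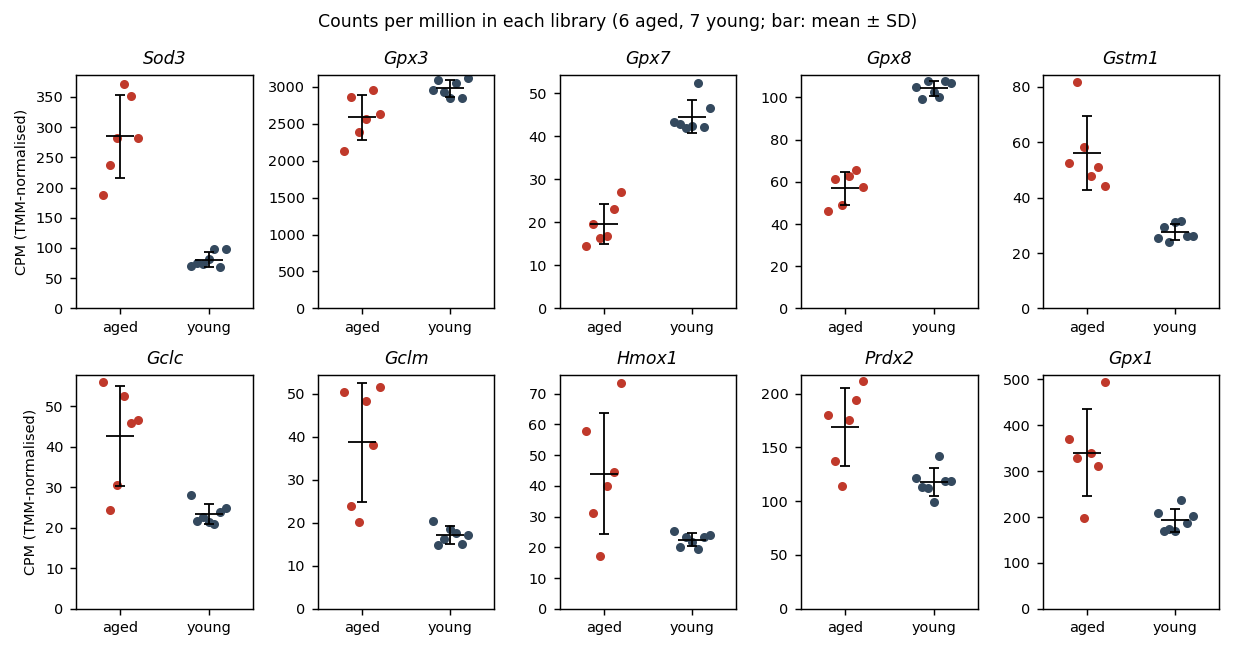
CPM of 10 members in each of the 6 aged (red) and 7 young (dark) libraries, with bars for mean ± SD. For Sod3 and Gstm1 all aged points lie above the young ones and for Gpx7 and Gpx8 all below, while the aged points of Gclc, Gclm, Hmox1 and Gpx1 are widely spread and reach down to the young range (lowest aged Hmox1 17.2 CPM, highest young 25.4 CPM).

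All 4 members that are abundant in red cells rose. Gpx1, the cytosolic glutathione peroxidase, had 199, 334 and 494 CPM (lowest, median, highest) in aged and 169, 187 and 238 CPM in young libraries, which is 0.82 ± 0.16 in log2 (SE, edgeR adjusted p = 0.000896). Only aged replicate 3 fell within the young range. It had the lowest erythroid and neutrophil sums of the aged libraries (639 and 1279 CPM) and the highest muscle sum (20072 CPM). Gpx1 took 15.8 ± 4.17% of the Gpx TPM in aged libraries (SD, n = 6) and 8.52 ± 0.885% in young libraries (SD, n = 7).

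Cat, the catalase of peroxisomes and red cells, was at 78.4, 86.9 and 97.3 CPM in aged and 49.9, 60.3 and 74.0 CPM in young libraries, with no overlap. On the log2 scale it rose by 0.53 ± 0.08 (SE, edgeR adjusted p = 0.000142). Prdx2, the main red-cell peroxiredoxin, stood at 114, 178 and 212 CPM in aged and 99.1, 118 and 142 CPM in young libraries, where the ages overlapped (log2 fold change 0.52 ± 0.13, SE, edgeR adjusted p = 0.00434). Sod1, the cytosolic copper-zinc dismutase, had the smallest change of these 4, 0.30 ± 0.09 (SE, edgeR adjusted p = 0.0169), at 80.1 ± 11.2 CPM in aged (SD, n = 6) and 64.9 ± 6.81 CPM in young libraries (SD, n = 7). With the erythroid level as a covariate Prdx2 stood at −0.22 (adjusted p = 0.646), Gpx1 at −0.0089 (0.992), Cat at 0.32 (0.38) and Sod1 at 0.34 (0.42).

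Within each age, the levels of 6 members were set against the mean log2 level of the erythroid markers, 12 relations in all. Among the 6 aged libraries Pearson's r was 0.93 for Cat (two-sided exact permutation p = 0.00972, adjusted over the 12 relations p = 0.117; Spearman's rho 0.94, exact permutation p = 0.0167, adjusted p = 0.2). It was 0.86 without the 2 libraries farthest from the median marker level. For Prdx2 r was 0.90 (exact permutation p = 0.0361, adjusted p = 0.156; rho 0.71, exact permutation p = 0.136, adjusted p = 0.544), and −0.06 without those 2 libraries, so this relation rests on them. For Gpx1 r was 0.75 (exact permutation p = 0.0389, adjusted p = 0.156; rho 0.89, exact permutation p = 0.0333, adjusted p = 0.2), and 0.70 without them. The extracellular genes had an r of 0.07 (Sod3, exact permutation p = 0.932, adjusted p = 0.96) and −0.26 (Gpx3, exact permutation p = 0.606, adjusted p = 0.96), and Sod1 of −0.33 (exact permutation p = 0.483, adjusted p = 0.96). No relation passed adjustment in either age, and 3 of the 12 had an unadjusted p under 0.05 by r and 2 by rho. In the 7 young libraries r was 0.03 for Cat (exact permutation p = 0.96), 0.60 for Prdx2 (p = 0.155) and 0.68 for Gpx1 (p = 0.0978). For Sod3, Gpx3 and Sod1 it was 0.09, −0.12 and 0.16 there.

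**Figure D4:**
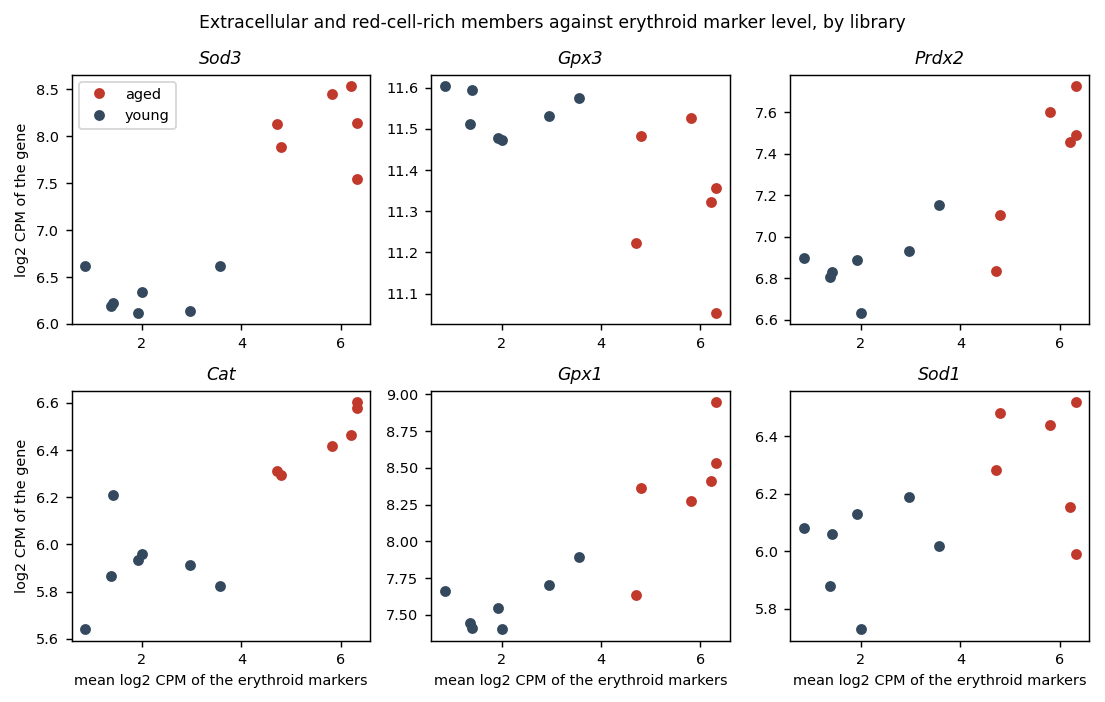
Log2 CPM of each gene (vertical) against the mean log2 CPM of 14 erythroid markers (horizontal), 1 point per library, red for aged and dark for young. The 2 ages do not overlap on the horizontal axis; among aged libraries r is 0.93 for Cat, 0.90 for Prdx2 (−0.06 without 2 libraries), 0.07 for Sod3 and −0.26 for Gpx3, and no relation passed adjustment.

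The 3 peroxidases of the endoplasmic reticulum, where secreted proteins such as collagen are folded with the help of disulphide exchange, all fell. Gpx7, which passes oxidising power from peroxide to the folding machinery, had 14.5, 18.3 and 26.9 CPM (lowest, median, highest) in aged libraries, against 42.0, 42.8 and 52.4 CPM in young libraries. Gpx8, its membrane-bound relative, had 46.0, 59.4 and 65.4 CPM in aged and 99.5, 105 and 108 CPM in young libraries. For both genes every aged library was below every young one, as for the summed chondrocyte markers. Markers of matrix-secreting cells fell beside them (chondrocyte 11 of 14, osteoblast and osteocyte 5 of 8), and their part in the result was not tested. On the log2 scale Gpx7 fell by 1.19 ± 0.13 (SE, edgeR adjusted p = 7.08e-06) and Gpx8 by 0.87 ± 0.08 (SE, edgeR adjusted p = 1.43e-06). With the erythroid level as a covariate they stood at −1.46 (adjusted p = 0.0254) and −0.84 (adjusted p = 0.0356), and with the muscle level at −1.17 and −0.91.

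Prdx4, the peroxiredoxin of this compartment, was at 32.3 ± 6.63 CPM in aged (SD, n = 6) and 44.8 ± 4.92 CPM in young libraries (SD, n = 7), −0.47 ± 0.12 in log2 (SE, edgeR adjusted p = 0.00652). The ages overlapped, and all 6 aged libraries lay below the young median. Its call was lost with library sizes alone in place of TMM factors (−0.24, adjusted p = 0.0969) and with the muscle (0.0999) or erythroid level (0.448) as a covariate. Prdx4 made up 9.75 ± 1.1% of the summed TPM of the 6 peroxiredoxins in aged libraries and 16.1 ± 0.807% in young libraries.

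Mitochondrial members rose in 3 of 4 cases. Txnrd2, the mitochondrial thioredoxin reductase, had 16.8, 21.4 and 24.5 CPM in aged and 9.56, 10.8 and 12.8 CPM in young libraries, with no overlap (log2 fold change 0.96 ± 0.10, SE, edgeR adjusted p = 7.39e-06). Sod2, the manganese dismutase of the matrix space, had 44.5, 62.3 and 76.4 CPM in aged and 37.4, 39.2 and 47.2 CPM in young libraries, overlapping at the ends (0.59 ± 0.13, SE, edgeR adjusted p = 0.0018). The 3 highest Sod2 levels, 76.4, 75.6 and 69.1 CPM, were in aged replicates 3, 5 and 2. These had the highest muscle marker sums (20072, 16660 and 17567 CPM) and the lowest erythroid sums of the aged libraries (639, 1368 and 749 CPM). With the muscle level as a covariate Sod2 stood at 0.17 (adjusted p = 0.472), Prdx3 at 0.32 (0.0646) and Txnrd2 at 1.15 (0.000138). None of the 3 was called with the erythroid level, at 0.94 (adjusted p = 0.0809) for Sod2, 0.66 (0.0957) for Prdx3 and 0.44 (0.259) for Txnrd2. Prdx3, the mitochondrial peroxiredoxin, rose without it by 0.55 ± 0.09 (SE, edgeR adjusted p = 0.000181), with no overlap, and Txn2, mitochondrial thioredoxin, was not called (0.22 ± 0.11, SE, adjusted p = 0.107; 0.45, adjusted p = 0.00226, with library sizes alone). Without aged replicate 4 Txn2 passed (0.29, adjusted p = 0.0207).

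Among the peroxidases of the cytosol or of several compartments, Prdx5 and Prdx6 rose and Prdx1, Gpx4 and Srxn1 were not called. Prdx5 had 80.8, 94.3 and 138 CPM in aged and 59.5, 69.0 and 76.5 CPM in young libraries (0.58 ± 0.12, SE, edgeR adjusted p = 0.00115). Prdx6, which uses glutathione rather than thioredoxin, had 83.5, 94.0 and 106 CPM in aged and 57.7, 70.9 and 75.2 CPM in young libraries (0.44 ± 0.07, SE, edgeR adjusted p = 0.000184). Neither gene overlapped between the ages. They stood, with the erythroid level as a covariate, at 0.51 (adjusted p = 0.328) and 0.43 (0.157), and with the muscle level at 0.58 (0.0328) and 0.37 (0.0278). Prdx1, the main cytosolic peroxiredoxin, was at 101 ± 18.4 CPM in aged and 122 ± 10.1 CPM in young libraries. Its log2 fold change was −0.27 ± 0.10 (SE), and −0.034 (adjusted p = 0.79) with library sizes alone. With TMM factors it lay at the threshold (edgeR adjusted p = 0.0502, and 0.0345 with DESeq2). It passed without aged replicate 5 or 6 or young replicate 4 (0.0297, 0.0129 and 0.0302). Gpx4, which repairs peroxidised membrane lipids, stood at 114 ± 27.6 CPM in aged and 93.7 ± 9.63 CPM in young libraries (0.28 ± 0.13, SE, adjusted p = 0.0921), and passed without aged replicate 1 or 4 (0.0391 and 0.0295) and with library sizes alone (0.52, adjusted p = 0.00456). Srxn1, which restores over-oxidised peroxiredoxins, stood at −0.08 ± 0.11 in log2 (SE, adjusted p = 0.584; 0.15 with library sizes alone).

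In the cytosolic thioredoxin system the members differed. Txnrd1, the cytosolic thioredoxin reductase, had 80.2, 89.5 and 90.8 CPM in aged and 96.7, 99.6 and 102 CPM in young libraries, so that every aged library was lower, by a small amount (−0.19 ± 0.04, SE, edgeR adjusted p = 0.00239). This direction depended on scaling, at 0.04 (adjusted p = 0.421) with library sizes alone and −0.11 (adjusted p = 0.124) by limma on log2(TPM + 1). Txn1, thioredoxin itself, was not called (−0.15 ± 0.15, SE, adjusted p = 0.44; 0.09 with library sizes alone; 67.2 ± 16.6 CPM in aged, 74.3 ± 12.2 CPM in young libraries). Glrx, a glutaredoxin that removes glutathione from proteins, rose by 0.64 ± 0.13 (SE, edgeR adjusted p = 0.0015), at 27.2 ± 5.81 CPM in aged and 17.5 ± 2.17 CPM in young libraries. It stood near 0 with the erythroid level as a covariate (−0.0070, adjusted p = 0.993).

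Both subunits of glutamate-cysteine ligase, the rate-limiting enzyme of glutathione synthesis, rose. Gclm, the modifier subunit, had 20.2, 43.1 and 51.5 CPM (lowest, median, highest) in aged and 14.7, 17.2 and 20.5 CPM in young libraries, 1.18 ± 0.20 apart in log2 (SE, edgeR adjusted p = 0.000399). Gclc, the catalytic subunit, had 24.5, 46.2 and 55.9 CPM in aged and 21.0, 22.7 and 28.0 CPM in young libraries (0.87 ± 0.17, SE, edgeR adjusted p = 0.000833). Each gene had 1 aged library within the young range, replicate 2 for Gclc and replicate 3 for Gclm, and the others above it. Replicates 2 and 3 were the lowest aged libraries for both genes (Gclc 24.5 and 30.6 CPM, Gclm 24.0 and 20.2 CPM). They had erythroid sums of 749 and 639 CPM, against 1368 to 2083 CPM in the other aged libraries. Their muscle sums were the highest, 17567 and 20072 CPM, against 5402 to 16660 CPM in the others. The part of blood or muscle cells in the rise of these genes was not tested. A covariate whose level follows age cannot separate it from age.

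With the erythroid level as a covariate Gclm stood at −0.11 (adjusted p = 0.91) and Gclc at 0.07 (adjusted p = 0.942), and with the muscle level at 1.63 (adjusted p = 0.000531) and 1.29 (adjusted p = 0.000647). Gss, glutathione synthetase, was at 14.2 ± 1.64 CPM in aged and 15.1 ± 1.18 CPM in young libraries and was not called (−0.09 ± 0.08, SE, adjusted p = 0.405; 0.14 with library sizes alone). Gsr, glutathione reductase, rose by 0.41 ± 0.15 (SE, edgeR adjusted p = 0.032), at 104 ± 27.6 CPM in aged and 77.8 ± 6.99 CPM in young libraries. That call was lost without aged replicate 1, 4 or 6 or young replicate 3 or 7 (adjusted p from 0.0604 to 0.0838), and the direction turned with the erythroid level as a covariate (−0.32, adjusted p = 0.609).

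**Figure D5:**
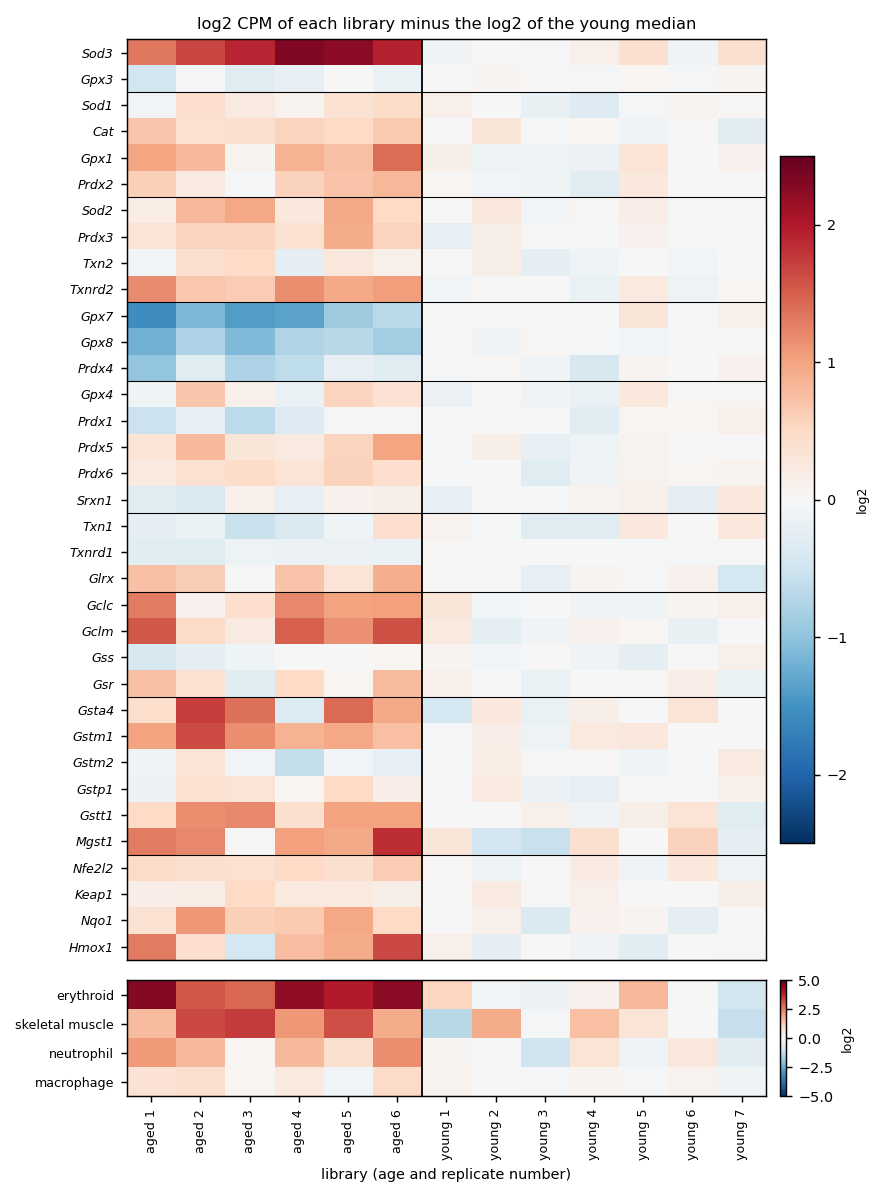
Log2 CPM of each member (upper panel, rows grouped by location or role) and log2 summed CPM of 4 marker lists (lower panel) in each library, minus the log2 of the young median; red is higher and blue lower, aged libraries on the left. Gclc, Gclm, Hmox1 and Gpx1 are palest in aged libraries 2 or 3, where erythroid sums were 749 and 639 CPM and muscle sums 17567 and 20072 CPM. Sod2 is strongest in these and in aged library 5, where the erythroid sum was 1368 CPM and the muscle sum 16660 CPM.

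Glutathione transferases, which join glutathione to reactive compounds, rose in 4 of 6 cases. Near-identical copies lie in these families, so reads may have been split between neighbours and single-gene levels of Gstm and Gstp members are uncertain. Gstm1 had 44.3, 51.8 and 81.5 CPM in aged and 24.1, 26.2 and 31.4 CPM in young libraries, with no overlap (1.02 ± 0.13, SE, edgeR adjusted p = 2.37e-05). It stood at 1.31 (adjusted p = 0.0328) with the erythroid level and 0.70 (adjusted p = 0.0093) with the muscle level as a covariate. Its relative Gstm2 was not called, at 8.01 ± 1.69 CPM in aged and 8.74 ± 0.8 CPM in young libraries (−0.12 ± 0.12, SE, adjusted p = 0.438; 0.11 with library sizes alone).

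Mgst1, a membrane-bound transferase of mitochondria and endoplasmic reticulum, rose by 1.09 ± 0.26 (SE, edgeR adjusted p = 0.0033), at 12.5 ± 4.72 CPM in aged and 5.84 ± 1.76 CPM in young libraries. Its direction turned with the erythroid level as a covariate (−0.085, adjusted p = 0.952), and with the muscle level it stood at 1.47 (0.00918). Gsta4, which detoxifies the lipid peroxidation product hydroxynonenal, rose by 1.04 ± 0.27 (SE, edgeR adjusted p = 0.00636) from low counts, 4.13 ± 1.82 CPM in aged against 2.00 ± 0.344 CPM in young libraries. Gstt1 rose by 0.86 ± 0.16 (SE, edgeR adjusted p = 0.000545) with no overlap, at 5.23 ± 1.17 CPM in aged and 2.87 ± 0.404 CPM in young libraries. With the muscle level as a covariate Gsta4 stood at 0.32 (adjusted p = 0.601) and Gstt1 at 0.62 (0.0883), and neither passed with the erythroid level (adjusted p = 0.0594 and 0.1). Gstp1, the most abundant transferase of the 6 per length, was not called (0.23 ± 0.10, SE, adjusted p = 0.0745; 0.46, adjusted p = 0.000743, with library sizes alone). It passed without aged replicate 1 (adjusted p = 0.0163) or young replicate 2 (0.0456). It held 60.1 ± 4.15% of their summed TPM in aged libraries and 70.4 ± 2.72% in young libraries.

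Nfe2l2, Keap1 and the NRF2 targets Nqo1 and Hmox1 rose. Other members known as NRF2 targets did not all move alike. Gclc and Gclm rose, Txnrd1 fell (0.04 with library sizes alone), and Srxn1 and Prdx1 were not called. These are examples and not a full list of such targets, and Gsr, Gstm1, Gsta4, Mgst1, Prdx6 and Cat rose as well. Nfe2l2, NRF2 itself, had 73.2, 76.1 and 87.5 CPM in aged and 51.8, 56.2 and 67.1 CPM in young libraries, with no overlap (0.43 ± 0.07, SE, edgeR adjusted p = 0.000277; 0.28, adjusted p = 0.394, with the erythroid level as a covariate and 0.47, adjusted p = 0.00881, with the muscle level). Keap1, its repressor, rose by 0.18 ± 0.07 (SE, edgeR adjusted p = 0.0332). That call was lost without any of 7 single libraries (aged replicates 3, 4 and 5, young replicates 1, 3, 5 and 6), with adjusted p from 0.0507 to 0.0731. Keap1 was highest in aged replicate 3 (90.3 CPM). It stood at 0.47 (adjusted p = 0.0722) with the erythroid level and 0.04 (0.797) with the muscle level. Nqo1, a quinone reductase, was low in abundance, at 5.52, 6.47 and 8.93 CPM in aged and 3.28, 4.22 and 4.61 CPM in young libraries, without overlap (0.75 ± 0.13, SE, edgeR adjusted p = 0.000453). It was not called with the erythroid (0.92, adjusted p = 0.12) or the muscle level (0.42, adjusted p = 0.125).

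Hmox1, the haem oxygenase that macrophages use when they take up red cells, had 17.2, 42.1 and 73.3 CPM in aged and 19.5, 23.4 and 25.4 CPM in young libraries (0.97 ± 0.24, SE, edgeR adjusted p = 0.00535). The lowest value of all 13 libraries was in aged replicate 3 and the highest in aged replicate 6, whose neutrophil sums were 1279 and 6029 CPM and whose macrophage sums were 1004 and 1867 CPM. With the erythroid level as a covariate Hmox1 stood at −0.10 (adjusted p = 0.948) and with the muscle level at 1.53 (adjusted p = 0.00223). The part of myeloid cells in its rise was not tested.

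Promoters were read for the core of the antioxidant response element, the sequence NRF2 binds with its small MAF partners. The reason was that not all members known as NRF2 targets rose. The core TGACNNNGC was searched on both strands in windows from 250 bases before to 50 bases after each start (RefSeq, GRCm38.p6, a different build from that of the counts). Windows were at hand for 29 members, and 7 of these genes held a match, against 14.0% of all 27025 genes and 12.4% of all windows. Gclc, Hmox1, Gsr, Prdx6, Sod3 and Gsta4 had no window and were not searched. In Srxn1 the match began 29 bases after the start. The other 6 are shown 5′ to 3′ on the gene's strand with the core (or its reverse complement, GCNNNGTCA) in capitals, first those of genes that rose, then Prdx1 and Txnrd1, which did not.
Gclm, chr3:122245403-122245451, plus strand: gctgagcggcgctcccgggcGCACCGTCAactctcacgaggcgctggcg
Nfe2l2, chr2:75704875-75704913, minus strand: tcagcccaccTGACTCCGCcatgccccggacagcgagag
Mgst1, chr6:138140451-138140499, plus strand: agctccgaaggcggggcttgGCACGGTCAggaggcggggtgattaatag
Sod1, chr16:90220686-90220734, plus strand: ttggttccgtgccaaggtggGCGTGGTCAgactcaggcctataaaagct
Prdx1, chr4:116685446-116685494, plus strand: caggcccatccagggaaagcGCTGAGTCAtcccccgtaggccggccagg
Txnrd1, chr10:82859094-82859142, plus strand: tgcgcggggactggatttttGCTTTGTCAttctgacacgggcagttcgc
Genes with a match thus included 4 that rose (Gclm, Nfe2l2, Mgst1 and Sod1), 1 that fell (Txnrd1) and 2 not called (Prdx1 and Srxn1). All the members without a window rose, so this tally leaves out genes of that direction alone. A match is a description of these letters and not evidence of binding, and none was found in the Nqo1 window.

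Beyond the 35 members, 75 other genes of redox metabolism in the table were read as a list, of which 68 were tested. In aged cartilage 30 rose and 8 fell, or 44.1% and 11.8% of those tested, against 24.7% and 21.6% of all genes. Their median log2 fold change was 0.25, against 0.014 over all genes. With library sizes alone 43 rose and 3 fell, where 58.9% of all genes were called and the median of all genes was 0.24. The 8 largest called changes at a mean of at least 5 TPM were all rises. Blvrb, a biliverdin reductase abundant in red cells, had 30.4, 45.6 and 61.1 CPM in aged and 12.3, 14.4 and 19.9 CPM in young libraries (1.47 ± 0.17, SE, edgeR adjusted p = 1.76e-05; 0.27, adjusted p = 0.611, with the erythroid level). Cybb and Ncf1, subunits of the superoxide-making phagocyte oxidase, rose by 1.42 ± 0.28 and 1.17 ± 0.26 (SE, edgeR adjusted p = 0.00108 and 0.00281) and stood at 0.38 and −0.22 with the erythroid level (adjusted p = 0.809 and 0.871). Xdh, xanthine dehydrogenase, which in its oxidase form makes superoxide, rose by 1.06 ± 0.12 (SE, edgeR adjusted p = 8.51e-06) with no overlap.

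The other 4 of these were Mgst2 (1.28 ± 0.37, SE, edgeR adjusted p = 0.0118), Gstp2, a close copy of Gstp1 (1.07 ± 0.25, SE, adjusted p = 0.0035), Msrb1, which repairs oxidised methionine (0.96 ± 0.17, SE, adjusted p = 0.000426), and Chac2, which breaks down glutathione (0.95 ± 0.15, SE, adjusted p = 0.000151). Set beside the erythroid level as a covariate, Mgst2 stood at 0.61 (adjusted p = 0.769), Msrb1 at 0.11 (0.892), Chac2 at 0.28 (0.667) and Xdh at 0.70 (0.159), while Gstp2 stood at 2.12 (0.0485). With the muscle level Gstp2 stood at 0.04 (0.924) and Mgst2 at 1.44 (0.0744). Blvrb, Cybb, Ncf1, Xdh, Msrb1 and Chac2 were called higher with that covariate (edgeR adjusted p from 6.87e-05 to 0.0108). Singled out after their values were seen, the small MAF partners of NRF2 all rose, Maff by 0.80, Mafk by 0.68 and Mafg by 0.30. Maff and Mafk also passed with the erythroid level as a covariate (1.00, adjusted p = 0.0459, and 0.76, adjusted p = 0.0188). The pentose phosphate genes G6pdx, Pgd, Taldo1 and Tkt, likewise singled out, rose by 0.73, 0.50, 0.55 and 0.63 (edgeR adjusted p = 0.00226, 0.00721, 0.00156 and 0.00106). With the erythroid level as a covariate they stood between −0.11 and 0.14 and were not called. With the muscle level they stood at 0.98, 0.77, 0.76 and 0.85 and were called (edgeR adjusted p = 0.00522, 0.00593, 0.00382 and 0.00321). With TMM factors, NADPH-producing genes of the list outside this pathway were not called higher. Idh1 fell (−0.41, edgeR adjusted p = 0.00124; −0.18, adjusted p = 0.0623, with library sizes alone). Me1 (−0.12, adjusted p = 0.391) and Nnt (0.006, adjusted p = 0.946) were not called. With library sizes alone Me1 stood at 0.105 (edgeR adjusted p = 0.367) and Nnt was called higher (0.24, edgeR adjusted p = 0.0121).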

How the data were processed

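Condylar cartilage RNA from 6 aged and 7 young libraries was captured on oligo(dT) beads and read as strand-specific pairs on a DNBSEQ instrument, per the labels' protocols. The submitters' processing notes name GRCm39, RSEM 1.3.1, DESeq2 1.4.5, Bowtie2 2.3.4.3 and HISAT2 2.1.0 without their roles, and no annotation version. The authors deposited expected counts (5.3% of values not whole), TPM and FPKM per library, per the file headers; FPKM and the authors' averages were not used.

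Rounded expected counts went into edgeR 4.0.16 under R 4.3.3 (filterByExpr with minimum count 10 and total 15, TMM, glmQLFit with robust estimation, glmQLFTest), aged over young in all 13 libraries, adjusted by Benjamini-Hochberg over 14067 genes. The SE is the log2 fold change divided by the square root of F. Marker levels are mean log2 CPM with a prior count of 2. Alternatives were no filter, a stricter filter, library sizes alone, RLE, DESeq2 1.42.0, limma 3.58.1 on log2(TPM + 1) and log2(TPM + 0.1), a replicate block, 2 marker covariates and each library left out. No sex, strain or batch label was given. Members and lists were chosen with earlier results of these data known. All members are named, and of the other redox genes the 8 largest called changes with at least 5 TPM; others are marked as singled out. The fit was tested on simulated data. The smallest chi-square per degree of freedom between libraries of an age was 9.87, so none was a duplicate. Counts were lowest for Gsta4, Gstt1 and Nqo1 (25, 37 and 56 in the lowest library), where counting error adds more to the spread between libraries. Figures used matplotlib 3.10.9.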

Additional observations from a re-analysis of the deposited data

Results flagged for a closer look

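Of 70 sets of libraries looked at (35 members in each age), 4 held a library far from the rest of its own age, and chance gives about 1 in 20. Keap1 was at 90.3 CPM in aged replicate 3, with the next aged library at 75.2 CPM. Prdx3 was at 63.3 CPM in aged replicate 5, with the next at 49.4 CPM. Gpx4 was at 112.5 CPM in young replicate 5, with the next young library at 95.7 CPM, and Prdx4 was low in young replicate 4, at 34.6 CPM against 43.5 CPM in the next.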

How the results depend on the processing

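Replicate numbers are shared by the ages, but same-numbered libraries did not deviate together in every pair (r of 0.254, 0.156, 0.258, −0.12, 0.111 and 0.167 over genes, for numbers 1 to 6), and 2 of 6 correlated best with their own number, so the numbers were not taken as pairs. The fit with a replicate block, in which young replicate 7 has no partner, called 23 members higher and 5 lower, with Gpx4 (adjusted p = 0.0441), Gstp1 (0.0468) and Prdx1 (0.0487) gained and Keap1 (0.0607) lost. The counts of members called (22 higher and 4 lower) stayed within 1.5 times their size with no filter (22 and 5), a stricter filter (21 and 4), RLE (22 and 5), DESeq2 (22 and 6) and limma on TPM (22 and 4). With 1 library left out they ran from 20 to 23 higher and from 4 to 6 lower, while those of the other redox genes ran from 29 to 34 higher and from 7 to 9 lower. In these fits 7 members' calls changed (Gpx3, Gpx4, Gsr, Gstp1, Keap1, Prdx1 and Txn2). Of members called in either of the 2 fits compared, 0 changed sign. Library sizes alone gave 2 members and 3 other redox genes lower and turned Txnrd1 to 0.039. The muscle covariate left 2 members and 5 other redox genes lower. The erythroid covariate left 2 members higher and 2 lower, with 5 and 0 of the other redox genes, and reversed Gpx1 (−0.0089), Prdx2 (−0.22), Glrx (−0.0070), Gclm (−0.11), Gsr (−0.32), Mgst1 (−0.085), Hmox1 (−0.099) and Ncf1 (−0.22). The cause of these shifts was not tested. Each covariate fit has fewer residual degrees of freedom and a marker level that follows age.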
